A study of Homo sapiens with 12 samples.

Results

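The last stretch of an mRNA, between the coding sequence and the poly(A) tail, was examined here for clusters of 3 RNA-binding proteins and of an RNA methyltransferase complex. A cluster belonged to this set when its midpoint lay, on the cluster's own strand, in the 3' UTR of a canonical protein-coding transcript (GENCODE release 44), outside all annotated coding sequence, and no more than 200 nt of spliced sequence upstream of the transcript end. Of 102250 clusters, 96139 lay on chromosomes 1 to 22, X and Y, 32721 of these in canonical 3' UTRs, and 1915 within 200 nt of the end. The 1915 clusters merged into 669 sites in 603 genes. The remaining 30806 clusters in 3' UTRs served for comparison.

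The study mapped binding in HepG2, a human liver cancer cell line that was labelled as wildtype in all 12 samples. Cells were given 4-thiouridine and crosslinked with long-wave UV, and each protein was immunoprecipitated after digestion with RNase T1 (PAR-CLIP). There were 2 libraries each for IGF2BP1, IGF2BP2, METTL1 and WDR4, 2 for IGF2BP3 and 2 more for IGF2BP3 that carried the label bio2, 12 in all. Below, the 8 IGF2BP libraries are compared with the 4 METTL1 and WDR4 libraries. No library of input RNA was analysed, so binding could not be set against the abundance of a transcript, and the ends are the annotated ones, since the ends used in these cells were not measured here. Each replicate had plates of cells of its own, per the study's protocol, though the labels do not say how rep1 and rep2 of a pair were made. Unless another unit is named, p-values measure the spread between libraries of 1 cell line. They count libraries of the same protein as separate units.

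IGF2BP1, IGF2BP2 and IGF2BP3 are related cytoplasmic proteins that bind mRNAs, largely in 3' UTRs, and are known for recognising short elements with CA in their centre. METTL1 and WDR4 form the complex that places the m7G modification in tRNAs and in some mRNAs, METTL1 being the catalytic subunit. Near the end of most mRNAs stands the poly(A) hexamer, usually AATAAA or ATTAAA in DNA letters, which the cleavage and polyadenylation machinery binds shortly upstream of the cut. RNase T1 cuts RNA after G, so clusters begin and end where G stands, and 4-thiouridine crosslinks only where the RNA has U.

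The sites found in all 12 libraries are printed first, as examples. Each line gives 30 bases from within the shared core of a site, 5' to 3', read from hg38 in DNA letters, with CATA, CATC and CATT in capitals.
CYGB (chr17:76527450-76527479, minus strand): ggccCATCctCATCctCATCttCATCctca
PKM (chr15:72199099-72199128, minus strand): actccaccctccaccttcCATTttccccca
S100A1 (chr1:153631911-153631940, plus strand): cctcaccccacttatccctctcCATAaccc
TRIR (chr19:12730725-12730754, minus strand): tcccccccttctcacctcctCATTctctct
YIPF3 (chr6:43511889-43511918, minus strand): cacctaccccttccttcctctttatctctc
The last base printed lay from 57 nt (YIPF3) to 99 nt (S100A1) upstream of the transcript end. The lines for PKM, S100A1, TRIR and YIPF3 hold no G, and that for CYGB holds 2. Whole clusters seldom lacked G: 7.29% did at sites in 10 to 12 libraries and 7.62% at sites in 1 library. All but YIPF3 hold at least 1 of the capitalised elements.

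A further set shows clusters that lay over a hexamer, here with AATAAA and ATTAAA in capitals, from sites found in 7 to 11 libraries. The lines are centred on the hexamer, so that in 6 of the 8 some bases, from 3 in SPIN1 to 12 in APLP2, lie outside the merged site.
HEATR5A (chr14:31291793-31291822, minus strand): ctaaattacataAATAAAgctaattttcat
SPIN1 (chr9:88478663-88478692, plus strand): taaaacatttaaAATAAAccctttatgtgc
HM13 (chr20:31569509-31569538, plus strand): attttgcctcacATTAAAaactcatcccat
SEMA6B (chr19:4542597-4542626, minus strand): cccctccccatcAATAAAactctgtttaca
CIDEB (chr14:24305197-24305226, minus strand): aaaaacatttccAATAAAaatatcaaatat
XPO1 (chr2:61478034-61478063, minus strand): ttttaacaactcATTAAAaaacaaaacaac
APLP2 (chr11:130144710-130144739, plus strand): cactatgcacagATTAAActtcacctacaa
PARP1 (chr1:226360749-226360778, minus strand): tttgtcttccaaATTAAAactctaccacaa
In HEATR5A, SPIN1, HM13, SEMA6B and CIDEB the printed stretch ended 10 nt or less from the annotated end. In XPO1, the gene of the main nuclear export receptor, it ended 185 nt upstream, in APLP2 66 nt and in PARP1 58 nt. APLP2 and PARP1 have a further hexamer downstream, ending 14 and 19 nt from the transcript end, while XPO1 has none in the last 50 nt.

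The last set shows sites found only in METTL1 and WDR4 libraries. Their shared cores are 20 nt (SRRM2) and 26 nt (ALDH4A1) wide, so that 10 and 4 of the bases printed lie outside the core, unlike in the first set, and for SRRM2 2 lie outside the site.
SRRM2 (chr16:2771249-2771278, plus strand): ggaaggaaggggcaggagttggaattagtt
ALDH4A1 (chr1:18871504-18871533, minus strand): gggtgggggcacaggctggagtattcttag
Both hold 14 G among 30 bases and none of the elements above. SRRM2 encodes a splicing protein of nuclear speckles and ALDH4A1 a mitochondrial enzyme of proline breakdown.

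Clusters were sparser at the transcript end than elsewhere in the same 3' UTRs. In IGF2BP1 libraries 4.82% and 4.99% of 3' UTR clusters lay within 200 nt of the end, in IGF2BP2 libraries 4.37% and 4.55%, and in IGF2BP3 libraries 5.98% and 5.13%. The bio2 libraries of IGF2BP3 gave 7.60% and 8.17%, the METTL1 libraries 8.40% and 8.34%, and the WDR4 libraries 7.51% and 6.49%. The bio2 libraries thus stood above the other 6 IGF2BP libraries and within the range of METTL1 and WDR4. Uniform placement along each cluster's own 3' UTR would put 10.0% ± 1.36 (SD, n = 8) there for the IGF2BP libraries and 11.9% ± 0.594 (SD, n = 4) for METTL1 and WDR4. The observed share was below that in each of the 12 libraries, with an observed to expected ratio from 0.503 in IGF2BP2 replicate 1 to 0.711 in METTL1 replicate 2. In the first 200 nt after the stop codon the same ratio was 1.17 ± 0.0810 (SD, n = 12) and above 1 in each library, so the shortfall lay at one end of the 3' UTR and not at both.

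**Figure D1:**
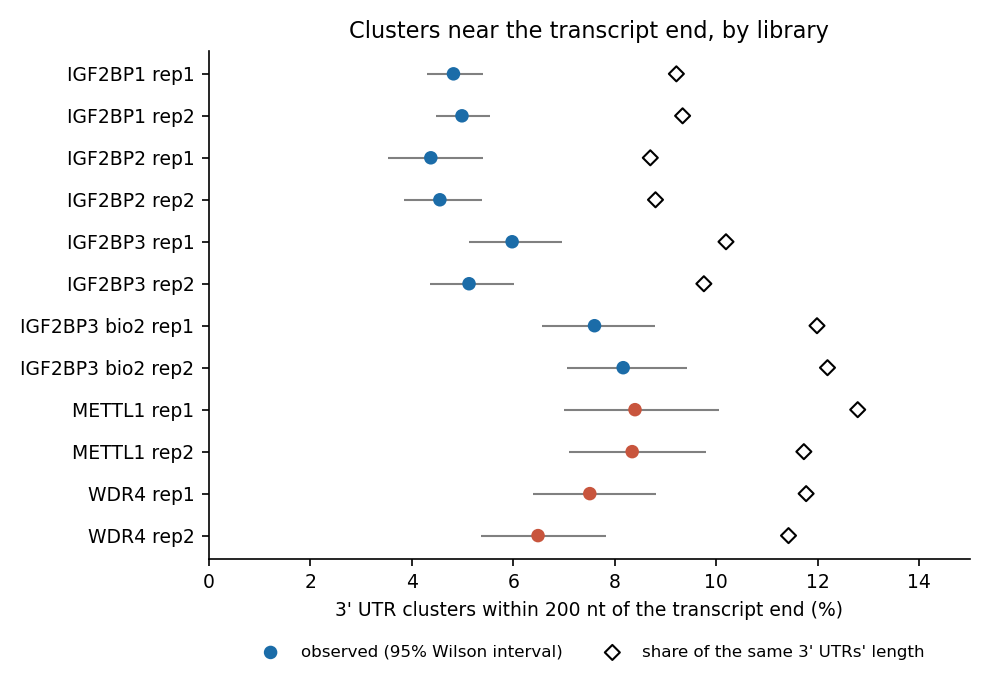
Share of 3' UTR clusters within 200 nt of the transcript end in percent, 1 line per library. Filled points are observed (blue IGF2BP, red METTL1 and WDR4) with 95% Wilson intervals, open diamonds the share expected from length. The observed share lies below the diamond in all 12 libraries, with ratios from 0.503 to 0.711.

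The difference between the protein groups depended on the denominator. The mean number of clusters in 3' UTRs was 3316 of 8020 in IGF2BP libraries and 1548 of 7994.5 in METTL1 and WDR4 libraries. A share of all clusters thus also carries how many clusters lay in 3' UTRs at all, and that part was not tested. As a share of all clusters, sites near the end made up 2.30% ± 0.414 (SD, n = 8) in IGF2BP libraries and 1.51% ± 0.267 (SD, n = 4) in METTL1 and WDR4 libraries, 0.800 points apart (exact permutation of libraries, two-sided, p = 0.00808 and 0.0485 after adjustment over 6 comparisons). That adjusted value passed the threshold by little: it rose to between 0.0545 and 0.0727 when any 1 of 9 libraries was left out, the exceptions being IGF2BP2 replicate 2 and both bio2 libraries. With proteins as the units it was 0.4, but there the smallest possible p is 0.1 (exact permutation, 3 against 2 proteins), so no result could pass. As a share of 3' UTR clusters the order turned, at 5.70% ± 1.44 (SD, n = 8) and 7.68% ± 0.896 (SD, n = 4), which is -1.98 points (exact permutation, p = 0.0343, adjusted p = 0.0687). The observed to expected ratio was 0.562 ± 0.0616 (SD, n = 8) and 0.643 ± 0.0593 (SD, n = 4), with a difference of -0.08 (exact permutation, p = 0.0566, adjusted p = 0.0848). Neither passed after adjustment over all 12 libraries. Without the bio2 libraries both did, at -2.71 points (exact permutation, adjusted p = 0.0143) and -0.11 (exact permutation, adjusted p = 0.0190), and without bio2 replicate 2 alone at -2.34 points and -0.10 (exact permutation, adjusted p = 0.0364 for both).

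Within the last 200 nt the clusters were not spread evenly. The last 25 nt held few, with an observed to expected ratio of 0.158 ± 0.0654 (SD, n = 8) for the IGF2BP libraries and 0.216 ± 0.0520 (SD, n = 4) for METTL1 and WDR4. At 100 to 124 nt from the end the ratios were 0.849 ± 0.116 (SD, n = 8) and 1.04 ± 0.0654 (SD, n = 4). In the part of the last 25 nt closest to the end, a midpoint requires a cluster narrower than the median of 35.7 nt or one that runs past the end. Only 26 of the 1915 clusters ran past it. The expectation takes no account of width, so a low value in this bin follows in part from how clusters were placed. In the other 25-nt bins of the window the mean ratio lay between 0.444 and 0.849 for IGF2BPs and between 0.480 and 1.04 for METTL1 and WDR4. No library reached 0.3 in the last 25 nt, while every library was above 0.7 at 100 to 124 nt. The median distance to the end was 107 ± 5.96 nt (SD, n = 8) and 109 ± 1.15 nt (SD, n = 4), which did not pass the test (exact permutation, p = 0.523, adjusted p = 0.628). The part within 50 nt was 17.1% ± 4.33 (SD, n = 8) and 16.5% ± 2.57 (SD, n = 4), again without passing (exact permutation, p = 0.828, adjusted p = 0.828). Just inside the limit, 228 clusters lay at 176 to 200 nt, and just outside it 333 lay at 201 to 225 nt.

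**Figure D2:**
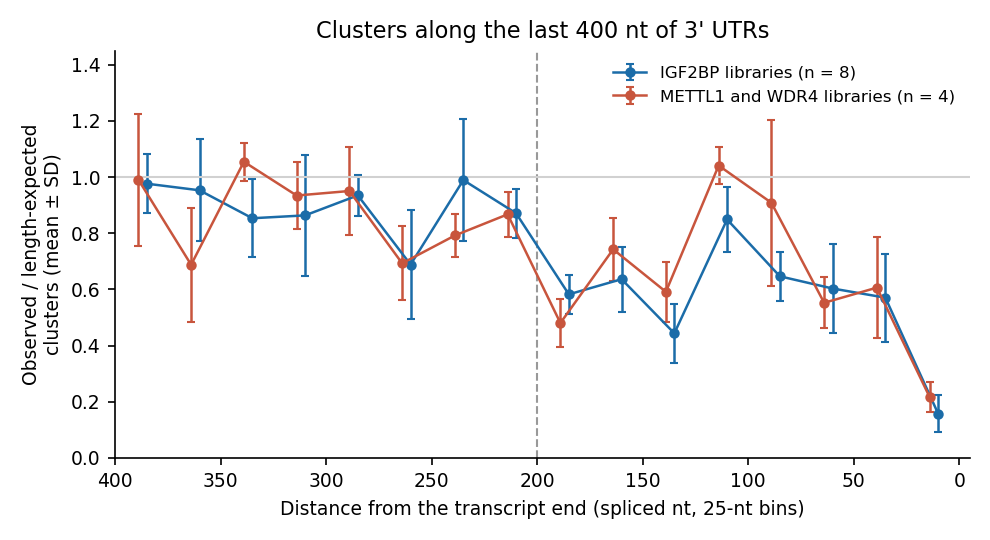
Observed over length-expected clusters (mean ± SD over libraries) in 25-nt bins of distance from the transcript end, which is at the right. Blue is IGF2BP (n = 8), red METTL1 and WDR4 (n = 4), and the dashed line marks 200 nt. The ratio in the last bin is 0.158 and 0.216.

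Clusters near the end held the poly(A) hexamer more often than other 3' UTR clusters did. It was present in 15.1% and 15.9% of near-end clusters of IGF2BP1, 14.6% and 14.8% of IGF2BP2, 21.6% and 22.3% of IGF2BP3, and 17.4% and 16.8% in the bio2 libraries. For METTL1 it was 10.4% and 15.7%, and for WDR4 13.3% and 10.1%. IGF2BP3 without the bio2 label was thus the highest of the groups. The mean over libraries was 15.7% ± 3.69 near the end and 5.26% ± 1.29 (SD, n = 12) elsewhere, and it was higher near the end in 12 of 12 libraries, by 10.4 points (two-sided exact sign-flip permutation test, p = 0.000488, the smallest 4096 flips can give, adjusted p = 0.00244 over 5 features). With proteins as the units the smallest possible p is 0.0625, which was the value obtained. Near-end clusters were chosen by distance from the end, where the hexamer stands, so a test against other 3' UTR clusters cannot separate binding from place. They were therefore also set against all windows of the same width in the same 3' UTR ends. Of these windows, 11.96% ± 1.33 (SD, n = 12) held the hexamer. Near-end clusters exceeded these windows in 11 of 12 libraries, by 3.70 points on average, with WDR4 replicate 2 the exception at -0.14 points. No test was run on this excess. Both hexamers lack G, and the part of the RNase T1 digestion in the excess was not tested.

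In all, 306 near-end clusters in 88 genes held a hexamer, 225 of them AATAAA alone, 73 ATTAAA alone and 8 both. Its share was highest next to the end, with 61.1% of the 319 clusters at 0 to 49 nt, 10.9% of 533 at 50 to 99 nt, 4.45% of 562 at 100 to 149 nt and 5.59% of 501 at 150 to 200 nt. Windows at the same distances gave 48.3%, 7.48%, 2.36% and 3.47%, so the pooled clusters were above the windows in each distance class. These counts pool the 12 libraries, so a site counts again in each library that has it. At 150 to 200 nt only 28 clusters held a hexamer, and the sites in XPO1 (11 libraries) and C1orf43 (8 libraries) were among them. The excess in the outer classes thus rests on few genes. In 304 near-end clusters a hexamer could be placed on the spliced transcript, the one nearest the end being taken. It ended in the last 50 nt in 209 of these clusters (64 genes) and further upstream in 95 (25 genes). Relative to the last hexamer of the final 50 nt, 1373 clusters lay upstream, 212 overlapped it and 0 lay wholly downstream, while 330 were in genes without one. That hexamer ended at a median of 17 nt from the transcript end, which leaves less room downstream than the width of a typical cluster. The 0 can therefore not be read as avoidance, and the part of this lack of room in it was not tested. A hexamer there was found in 82.4% of the genes with a near-end cluster, in 84.4% of genes with other 3' UTR clusters only, and in 79.7% of all 19229 canonical 3' UTRs. Between protein groups, 17.3% ± 3.01 (SD, n = 8) of IGF2BP clusters and 12.4% ± 2.64 (SD, n = 4) of METTL1 and WDR4 clusters near the end held it, a gap of 4.94 points that did not pass after adjustment (exact permutation, p = 0.0242, adjusted p = 0.0687).

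**Figure D3:**
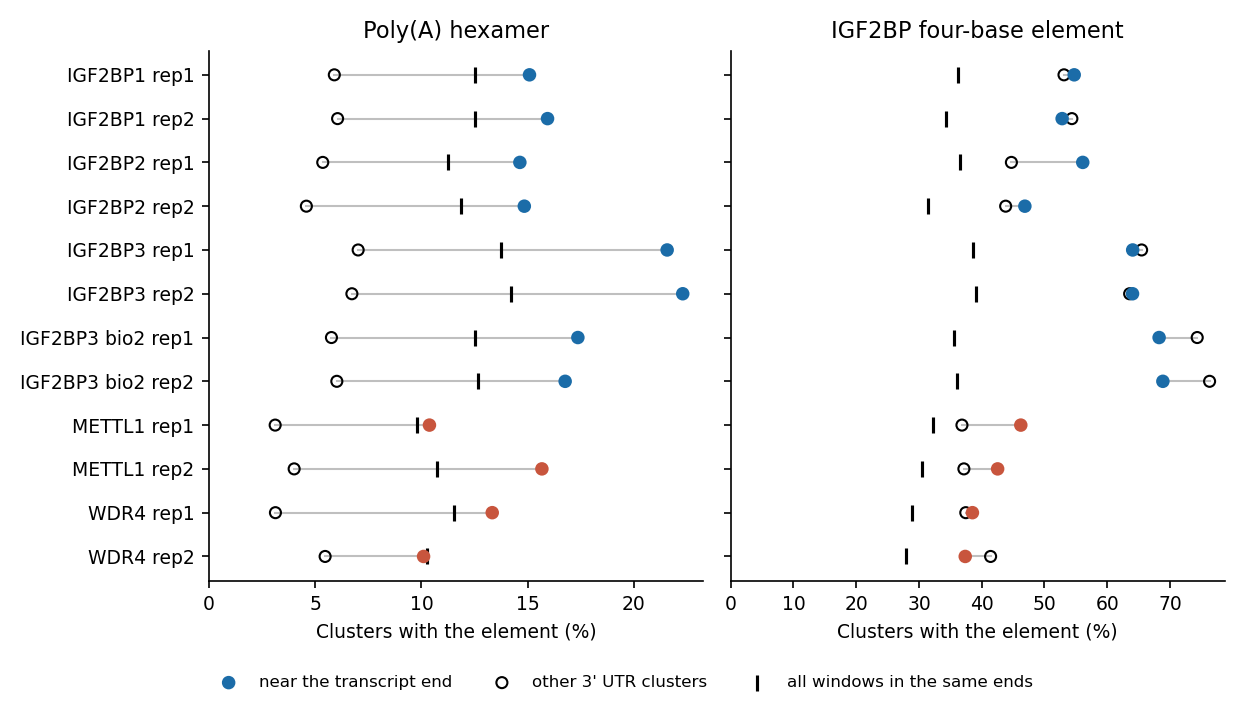
Percent of clusters holding the poly(A) hexamer (left) and CATA, CATC or CATT (right), 1 line per library. Filled points are near-end clusters (blue IGF2BP, red METTL1 and WDR4), open circles other 3' UTR clusters, and ticks all windows of the same width in the same ends. The hexamer is more frequent near the end in 12 of 12 libraries, while for the other element the mean difference is 0.98 points.

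For the elements known for IGF2BPs no difference between the transcript end and the rest of the 3' UTR passed the test over all clusters. CATA, CATC or CATT was present in 53.4% ± 11.2 of near-end clusters and 52.4% ± 14.5 (SD, n = 12) of other 3' UTR clusters, a difference of 0.983 points with SD 5.73 (exact sign-flip permutation test, p = 0.565, adjusted p = 0.565). The direction of this comparison was not stable: among clusters with a single-copy centre it was -3.99 points (exact permutation, adjusted p = 0.00366), and among wide clusters 10.3 points (exact permutation, adjusted p = 0.00854). Against windows of the same ends the element was more frequent in 12 of 12 libraries, by 19.4 points on average. The element holds no G, and G was rarer in the clusters than in these windows. The part of the RNase T1 digestion in this excess was not tested. It stood in 59.5% ± 7.96 (SD, n = 8) of near-end clusters of IGF2BPs and 41.2% ± 4.04 (SD, n = 4) of those of METTL1 and WDR4, while 36.0% and 29.9% of the windows held it.

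G was rare in the clusters of all proteins. It made up 7.76% ± 2.92 (SD, n = 8) of bases in near-end clusters of IGF2BPs and 15.3% ± 1.14 (SD, n = 4) in those of METTL1 and WDR4, against 18.5% and 21.6% in the windows. The share was below the windows in 12 of 12 libraries. RNase T1 cuts after G, and the part of the digestion in these values was not tested. It was also lower at sites shared by more libraries: 16.1% of bases in the 315 sites found in 1 library, 10.4% in the 236 found in 2 to 5, 7.12% in the 95 found in 6 to 9, and 5.49% in the 23 found in 10 to 12. The mix of proteins changed too. METTL1 and WDR4 gave 45.4% of clusters at sites in 1 library and 17.7% at sites in 6 to 9. At sites in 10 to 12, which the 8 IGF2BP libraries alone cannot reach, they gave 34.0%. Within the IGF2BP libraries G went from 12.1% at sites in 1 library to 5.58% at sites in 10 to 12, and within METTL1 and WDR4 from 20.9% to 5.32%. The IGF2BP-type elements went the other way, from 38.1% of clusters at sites in 1 library to 78.5% at sites in 10 to 12, and the median width of clusters from 31 to 46 nt. The part of width in the share of elements was not tested.

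Smaller differences separated near-end from other 3' UTR clusters. These calls hold with each library as a unit and were lost with sign flips shared within a group (exact permutation, adjusted p = 0.0521 for T and GC and 0.0781 for width) and with proteins as units (0.0781 for each). The smallest possible p of these exact sign-flip tests is 0.03125 for shared flips and 0.0625 for proteins, so with proteins no feature could pass. T content was 30.4% ± 2.03 against 31.0% ± 2.17 (SD, n = 12), lower near the end in 10 of 12 libraries (exact sign-flip permutation test, adjusted p = 0.00671). GC content was 47.2% ± 4.43 against 46.2% ± 4.84 (SD, n = 12), higher in 10 of 12 (exact permutation, adjusted p = 0.00488), but within 100 nt of the end the difference turned to -2.16 points (exact permutation, adjusted p = 0.00488), and it was -0.10 points in 3' UTRs of at least 400 nt. Median width was 35.7 ± 2.78 nt against 38.5 ± 2.57 nt (SD, n = 12), smaller in 10 of 12 libraries (exact permutation, adjusted p = 0.00488), though with single-copy centres the difference was 0.208 nt (exact permutation, adjusted p = 0.757). Clusters near the end had a single-copy centre in 76.1% ± 2.69 of cases and other 3' UTR clusters in 68.1% ± 9.21 (SD, n = 12). Recovery in the other library of a pair was also compared: 60.02% of near-end clusters and 61.3% of other 3' UTR clusters overlapped a cluster there, and the difference of -1.26 points (SD 5.25 over 6 pairs) did not pass (exact sign-flip permutation test, p = 0.5625).

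By gene, 603 of the 4197 genes with any 3' UTR cluster had one near the end (14.4%), and 281 of these had it in a single library. Their 3' UTRs were shorter, with a median of 933 nt against 2664 nt for genes with other clusters only. The window covers a larger part of a short 3' UTR, so the rule itself favours such genes. In 52 of the 603 genes the 3' UTR was no longer than the window. A near-end cluster in at least 2 libraries of the protein was found in 209 genes for IGF2BP1 (4.98%), 55 for IGF2BP2 (1.31%), 192 for IGF2BP3 over its 4 libraries (4.57%), 48 for METTL1 (1.14%) and 37 for WDR4 (0.882%). The 55 IGF2BP2 genes lay mostly among those of IGF2BP1, with 50 shared (90.9% of the IGF2BP2 genes and 23.9% of the IGF2BP1 genes). METTL1 and WDR4 shared 22 genes (45.8% and 59.5%), and METTL1 shared 38 with IGF2BP1 (79.2% of the METTL1 genes and 18.2% of those of IGF2BP1). The libraries also differed in cluster number, from 4157 to 15051 on these chromosomes, and its part in these shares was not tested.

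For all 5 proteins, 15 genes had a near-end cluster in at least 2 libraries. RPS19 is counted here through its annotated canonical transcript. Several encode proteins of the actin skeleton or its control (PFN1, the actin-binding profilin, and ARPC2, a subunit of the Arp2/3 complex) or of metabolism and transport (PKM, the glycolytic enzyme pyruvate kinase, and SLC1A5, a glutamine transporter). The others were ARRB2, BPIFB2, CBX5, CYGB, EPHA2, PPME1, RPS19, S100A1, TADA3, TRIR and YIPF3. No theme was tested for these genes.

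TRIR, the gene of an RNase that interacts with telomerase RNA, had the most clusters, 19 over the 12 libraries with 1 or 2 in each, at a median distance of 97 nt in a 3' UTR of 321 nt. PFN1 had 16 over 12 libraries, 3 of them in IGF2BP1 replicate 2, at a median of 184 nt in a 3' UTR of 248 nt. S100A1, a calcium-binding protein gene whose whole 3' UTR of 198 nt lies in the window, had 1 cluster in 11 libraries and 2 in IGF2BP3 replicate 1. CYGB (cytoglobin), PKM and YIPF3 (a Golgi membrane protein) had exactly 1 in each of the 12 libraries. The single sites were placed alike: the YIPF3 midpoints lay 71 to 73 nt from the end, those of PKM 75 to 88 nt and those of CYGB 108 to 120 nt. The central 20 nt were not single copy in any PKM cluster and were in 25% of the CYGB clusters. Which copy the reads came from was not tested.

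Of the next genes, 7 had a near-end cluster in 11 libraries, each missing 1. GPX2, a glutathione peroxidase, ATP6V0E2, a subunit of the proton pump of acidic organelles, and XPO1 lacked one in WDR4 replicate 2. HEATR5A lacked one in WDR4 replicate 1, PCYOX1, a prenylcysteine oxidase, in METTL1 replicate 1, GPC3, a cell-surface proteoglycan known in liver cancer, in IGF2BP2 replicate 1, and SLC1A5 in bio2 replicate 2. The XPO1 site lay 199 to 200 nt from the end, at the limit of the window. GPX3, the secreted glutathione peroxidase, had clusters in 9 libraries, in a nearer site at a median of 88 nt and a further one at 152 nt, and none in WDR4 replicate 2 or the bio2 libraries.

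The bio2 libraries differed from the others in several of these genes. Of 15 genes with a near-end cluster in all 10 libraries without that label, 8 had none in either bio2 library and 6 had one in both. The 8 were ARPC2, ARRB2, BPIFB2, CBX5, EPHA2, PPME1, RPS19 and TADA3. In turn, 27 of the 124 genes with one in both bio2 libraries had one in no other library. Among the 27 was IGFBP1, a secreted binding protein of insulin-like growth factors, with 2 clusters in each bio2 library. MANBAL also had 2 in each bio2 library, against 1 in both IGF2BP1 and both IGF2BP3 libraries. Genes found in both libraries of a pair numbered 115 for IGF2BP3 and 124 for bio2, with 56 in common (48.7% and 45.2%). What sets the bio2 libraries apart was not tested.

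Some of the widely shared sites lay in repeated sequence. RPS19, a ribosomal protein gene, had 1 or 2 clusters in 10 libraries, at a median of 48 nt from the end of an annotated 3' UTR of 1548 nt, against a median of 174 nt over the ribosomal protein genes. Whether the RPS19 mRNA of these cells reaches that end was not measured here, so its clusters may not belong to the main mRNA of the gene. None of its clusters had a single-copy centre. HSP90AB1, a cytosolic chaperone gene, had clusters in 8 libraries, 4 of each protein group, with a midpoint at 110 nt in the main site, and APOC1, an apolipoprotein gene, in 7 libraries. Neither had a cluster with a single-copy centre. Which copy such reads came from was not tested.

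Presence in IGF2BP against METTL1 and WDR4 libraries was tested for the 233 genes with a near-end cluster in at least 3 libraries. No gene passed (Fisher's exact test, 0 of 233 called, 0%, smallest adjusted p = 0.118), while 17 had an unadjusted p under the threshold (7.3%), 13 of them with more IGF2BP libraries and 4 with more METTL1 and WDR4 libraries. The smallest p that 8 against 4 libraries allow is 0.00202. Over 233 genes a single gene at that value cannot pass after adjustment, so the 0 cannot be read as a lack of differences. FGA, the fibrinogen alpha chain gene, C1orf43 and CAPZA1, a capping protein of actin filaments, had a near-end cluster in 8 of 8 IGF2BP libraries and 0 of 4 METTL1 and WDR4 libraries. FGA had 2 in each bio2 library and 1 in each of the others. BANF1, a DNA-binding protein of the nuclear envelope, and CALR, the chaperone calreticulin, had one in 7 IGF2BP libraries, missing IGF2BP2 replicate 1, which had the fewest clusters. No BANF1 or CALR cluster had a single-copy centre.

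In the other direction, SRRM2 had a near-end cluster in 4 of 4 METTL1 and WDR4 libraries and 0 of 8 IGF2BP libraries, at a median of 150.5 nt. ALDH4A1 was found in METTL1 replicate 1 and both WDR4 libraries, and PRMT1, a protein arginine methyltransferase, in both METTL1 libraries and WDR4 replicate 1. BBLN and CAMK1, a calcium-dependent kinase, were found in 2 such libraries each. Of 290 genes with a near-end cluster in a METTL1 or WDR4 library, 153 also had one in an IGF2BP library. Among all 4197 genes with a 3' UTR cluster, 603 (14.4%) had a near-end cluster in any library. The share for IGF2BP libraries alone cannot be higher than that. The part of 3' UTR length and of the number of libraries and clusters in this overlap was not tested.

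**Figure D4:**
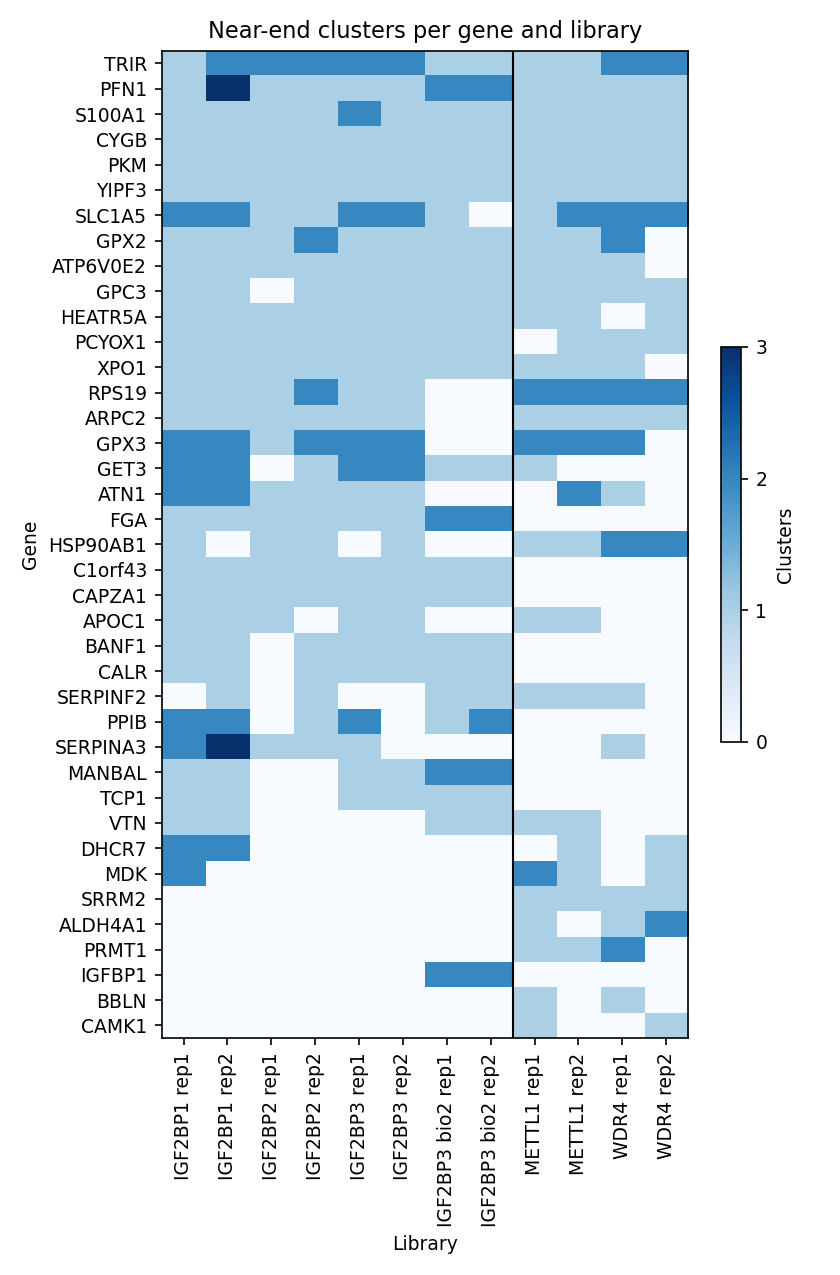
Near-end clusters per gene (rows) and library (columns), darker for more clusters, up to 3. The line parts the 8 IGF2BP libraries (left) from the 4 METTL1 and WDR4 libraries (right). The 6 genes at the top have a cluster in all 12 libraries, FGA, C1orf43 and CAPZA1 only in the IGF2BP libraries and SRRM2 only at the right.

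Among the genes with the most clusters in a library group, SERPINA3, a secreted protease inhibitor, had 2 and 3 in the IGF2BP1 libraries. It had none in 6 of the other libraries. ATN1 and DHCR7, the enzyme of the last step of cholesterol synthesis, had 2 in each IGF2BP1 library. Neither was found in IGF2BP1 libraries only. An ATN1 site was in 6 IGF2BP libraries and 1 METTL1 or WDR4 library, and another in 2 of each kind. A DHCR7 site was in 2 IGF2BP and 2 METTL1 or WDR4 libraries. GET3, an ATPase that delivers tail-anchored proteins to the endoplasmic reticulum, had 2 in each IGF2BP1 and each IGF2BP3 library without the bio2 label. MDK, the growth factor midkine, had 2 in METTL1 replicate 1 and in IGF2BP1 replicate 1.

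Of the gene lists examined, those of secreted liver proteins and chaperones had the largest numbers of genes in at least 6 libraries. Of 23 secreted liver plasma protein genes with a 3' UTR cluster, 10 had one near the end (43.5%, against 14.4% of all genes with a 3' UTR cluster), and FGA, APOC1, SERPINF2, SERPINA3 and VTN had it in at least 6 libraries. The median 3' UTR of that list was 219 nt, so that the window covered most of it. Of 18 chaperone and folding genes 8 did (44.4%), with HSP90AB1, CALR, PPIB and TCP1 in at least 6 libraries, and PPIB, a prolyl isomerase of the endoplasmic reticulum, and TCP1, a subunit of the cytosolic chaperonin, in 6 IGF2BP libraries and in 0 of the 4 METTL1 and WDR4 libraries. Ribosomal protein genes gave 6 of 18 and translation factor genes 9 of 31.

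Replication-dependent histone genes, whose mRNAs end in a stem-loop and not a poly(A) tail, gave 3 of 4 (75%; H2BC11, H2BC4 and H3C4), each in 1 METTL1 or WDR4 library, and their median 3' UTR was 57 nt. Of 15 genes of the 3' end processing machinery 0 had a near-end cluster, and of 7 nuclear oxidative phosphorylation genes 0. Of 17 let-7 target and IGF2BP genes 2 did (11.8%, near the 14.4% of all genes), CCND1, the cell cycle protein cyclin D1, and IGF2, the growth factor the family is named for, each in 3 libraries. These counts are descriptions, and 3' UTR length differed between the lists.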

How the data were processed

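HepG2 PAR-CLIP clusters of 12 libraries were analysed. As the methods of the study describe, reads were filtered, clipped and collapsed by the authors with the FASTX toolkit, mapped with bowtie and turned into clusters. The authors called these in each library with PARalyzer. The submitters' processing notes name Bowtie and the hg38 build, while tool versions and PARalyzer settings were not given in the sources used here. Each deposited line is the interval of 1 cluster with no score and no read number, which is neither a count nor another measured level. Read depth behind a cluster was therefore unknown, and intervals on shares cover the counting of clusters only.

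Starts were read as counted from 1, because the base before a cluster was then G in 74.2% to 94.9% of clusters per library and its first base in 0.686% to 5.28%. Clusters were placed by their midpoint on GENCODE release 44 canonical protein-coding transcripts, a midpoint in coding sequence of any transcript being left out. Where several 3' UTRs held a midpoint, the nearest end was taken. The expected share was the part of each cluster's own 3' UTR that lay in the window. Same-width windows were all those in the last 201 nt of the same 3' UTR. A cluster's centre was single copy when its central 20 nt occurred once in hg38.

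Shares were set against each other by exact permutation over 495 splits of 8 against 4 libraries, two-sided, counting splits whose absolute difference was at least as large. Within libraries they were compared by exact sign-flip tests over 4096 flips. Benjamini-Hochberg adjustment was made over 6 and over 5 results. Genes with a cluster in at least 3 libraries were tested by Fisher's exact test. The threshold was 0.05. The members, gene lists and tests were chosen with earlier results of these data known. Genes were named by 4 rules: the 15 in the most libraries, the 3 with the most clusters in each of the 6 library groups among genes found in both libraries, the 5 leading genes of IGF2BP libraries alone and of METTL1 and WDR4 libraries alone, and listed genes in at least 6 libraries. Other genes are named because their sequence is printed, because they were found for all 5 proteins, or in a list with few members, and these were chosen after their values were seen. The sequence of 1 site is not reported here. Python 3.11.15, numpy 2.4.6, pandas 2.3.3, scipy 1.17.1, pysam 0.24.0 and matplotlib 3.10.9 were used, and the code was tested on simulated data.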

Additional observations from a re-analysis of the deposited data

Results flagged for a closer look

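In the width of clusters the protein groups differed. The median width of near-end minus other 3' UTR clusters was -1.25 ± 1.31 nt (SD, n = 8) in IGF2BP libraries and -6 ± 2.80 nt (SD, n = 4) in METTL1 and WDR4 libraries, a gap of 4.75 nt (exact permutation of libraries, two-sided, p = 0.00202, the smallest 495 splits can give, adjusted p = 0.0101 over 5 features). The corresponding gap for the poly(A) hexamer was 2.94 points (exact permutation, p = 0.107, adjusted p = 0.268).

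IGF2BP2 replicate 1, the library with the fewest clusters, lay far from the other IGF2BP libraries in T content, with near-end clusters at 0.473 points above other 3' UTR clusters. Its gap to the nearest IGF2BP library was 0.561 of the whole range of the 8. Chance flags about 1 in 20 such groups, and 22 were examined.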

How the results depend on the processing

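The larger share of all clusters in IGF2BP libraries (0.800 points) kept its direction in all alternatives but lost its call with proteins as units (0.697), within replicate number (0.800), in a window of 100 nt (0.368) and with single-copy centres (0.451), and leaving out 1 library gave 0.679 to 0.879. With proteins as units the smallest possible p is 0.1 (exact permutation), so no comparison between protein groups could pass there. The share of 3' UTR clusters (-1.98) passed without bio2 (-2.71), in 3' UTRs of at least 400 nt (-1.51) and with single-copy centres (-3.41), shrank in a window of 100 nt (-0.877) and in wide clusters (-0.421), and ranged from -2.38 to -1.75 with 1 library left out. The ratio passed without bio2 (-0.11) and with single-copy centres (-0.11), turned to 0.00148 in wide clusters, and ranged from -0.11 to -0.0592. The hexamer difference between groups passed in a window of 100 nt (9.22), in 3' UTRs of at least 400 nt (4.52), in wide clusters (9.70) and with p as the doubled smaller tail (4.94, adjusted p = 0.0485, exact permutation, chosen after seeing the data), and ranged from 4.19 to 6.04. Median distance turned without bio2 (0.250 nt), in a window of 300 nt (19.6, where it passed with adjusted p = 0.00606, exact permutation) and in 3' UTRs of at least 400 nt (1.00). The part within 50 nt turned without bio2 (-0.816), with proteins as units (-0.465) and at 300 nt (-0.406), and ranged from -0.231 to 1.80.

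Near-end minus other clusters lost the call with proteins as units for the hexamer (9.86), T (-0.573), GC (0.825) and width (-3.33), where the smallest p is 0.0625. T lost it in a window of 100 nt (-0.604) and GC in wide clusters (0.231). GC turned at 100 nt (-2.16) and in 3' UTRs of at least 400 nt (-0.0988), and width with single-copy centres (0.208). CATA, CATC or CATT passed in wide clusters (10.3) and turned in 3' UTRs of at least 400 nt (-0.960) and with single-copy centres (-3.99). Overlap with the partner library turned in wide clusters (1.18) and ranged from -2.39 to 0.0272. The causes were not tested. No gene was called in any of 18 alternatives.

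With the replicate block, flips shared within a group kept the values for hexamer (10.4), T (-0.644), GC (0.918) and width (-2.83) but not the calls (adjusted p = 0.0521 for the first 3 and 0.0781 for width, exact permutation). The smallest unadjusted p that these flips allow is 0.03125 (exact permutation), which the first 3 reached. Across 10593 sites, 15 correlations of replicate differences ranged from -0.0209 to 0.0187, and replicate numbers were therefore treated as names only. Depth per cluster is unknown, so absence of a cluster is not absence of binding.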
